A study of Mus musculus with 4 samples.

Results

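Complement is a set of blood and tissue proteins that mark surfaces for removal. 9 of its genes were followed through the cells of bleomycin-injured mouse lungs, chosen by name out of the 32286 genes in the count tables: C1qa, C1qb and C1qc, C1ra and C1s1, C4b, C3, Cfb and Serping1. The question was in which cells of the lung each gene's transcripts lay, in fibroblasts or in macrophages, and whether those levels differed between wild-type (WT) mice and mice without Tubb3. 2 WT and 2 Tubb3-/- mice, 8 to 11 weeks old, received 0.8 U/kg bleomycin into the trachea, and their lungs were taken on day 14, so every sample is from an injured lung and no uninjured lung was compared. The Tubb3-/- mice were homozygous for a knock-in that puts Cre recombinase at the start of the coding sequence of Tubb3, the gene of the tubulin isotype known as Tuj1, in every cell of the animal, and the WT mice were their littermates. Each lung gave a whole-cell library, depleted of red cells, and a mural cell-enriched library. The second was depleted of endothelial (CD31), immune (CD45), epithelial (EpCAM) and red cells and then sorted into MCAM+ PDGFRα- and MCAM- cells, which were mixed 1:1. The cells of each mouse were tagged, and the 4 mice were pooled by sample type before sorting and capture, so mice of both genotypes shared 1 whole-cell and 1 enriched pool with its free RNA. The tags split the 2 pools into 8 count tables, called libraries here. The strain background was not given in the sources used here.

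The classical pathway of complement begins when C1q, a bundle of A, B and C chains, binds antibody or a damaged surface, whereupon the proteases C1r and C1s are activated in turn and C1s cleaves C4 and C2. All routes meet at C3, whose fragments coat the surface. In the alternative route factor B, the product of Cfb, supplies the protease that cleaves further C3, and the serpin C1 inhibitor, the product of Serping1, blocks C1r and C1s. The liver makes most of the circulating proteins, while C1q is known as a product of tissue macrophages, and fibroblasts are a well known local source of C1r, C1s and C3.

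The genes lie in a few places in the genome (GRCm38, GENCODE vM21). The C1q chain genes are neighbours on the minus strand of chromosome 4: C1qb at chr4:136880129-136886187, C1qc at chr4:136889804-136893065 and C1qa at chr4:136895917-136898803, with 3616 and 2851 bases between them. C1ra (chr6:124512405-124523443, plus strand) and C1s1 (chr6:124530345-124542359, minus strand) are 6901 bases apart. Cfb (chr17:34856374-34862518) and C4b (chr17:34728380-34743882) lie on the minus strand in the major histocompatibility region, C3 (chr17:57203970-57228136, minus) lies farther along the same chromosome, and Serping1 is at chr2:84765387-84775444 (minus). The counts are of 3′ reads, so they can fall in the last exons and 3′ ends of these genes and say nothing of which promoter was used. C4b, C1s1 and C1ra have near-identical copies (C4a, C1s2 and C1rb) to which reads could be lost, and their counts carry that uncertainty. The copies stayed at or below 0.817 CPM (UMI counts scaled to the total of a sum, as explained below) in every lineage. C1s1 overlaps Gm16567 on the other strand, Cfb overlaps Gm20547 and Mir6972 and C3 overlaps Mir6978 on their own strand.

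RefSeq promoter sequences (GRCm38.p6, 250 bases before to 50 after the start) matched 5 of the 9 genes, and no sequence was printed for C4b, Cfb, Serping1 and C1qa. They are shown because the 2 C1q chains and the 3 other genes fell into different cells in every mouse. The windows are where 2 such groups could be compared letter by letter. Both strands were searched for GAGGAA (a core letter string of PU.1, a macrophage factor), TTGCNNAA (C/EBP), GGGA and CC with 4 bases between (NF-kB) and TTCNNNGAA (STAT, which reads the same on both strands), where N is any base. Matches are in capitals, and overlapping matches run together.

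C1qb: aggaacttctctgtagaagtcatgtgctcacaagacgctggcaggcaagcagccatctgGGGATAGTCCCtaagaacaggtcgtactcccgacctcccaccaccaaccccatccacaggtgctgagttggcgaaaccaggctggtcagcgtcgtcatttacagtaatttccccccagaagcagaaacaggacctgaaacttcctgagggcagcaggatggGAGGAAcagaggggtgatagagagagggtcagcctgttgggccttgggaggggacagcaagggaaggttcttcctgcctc

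C1qc: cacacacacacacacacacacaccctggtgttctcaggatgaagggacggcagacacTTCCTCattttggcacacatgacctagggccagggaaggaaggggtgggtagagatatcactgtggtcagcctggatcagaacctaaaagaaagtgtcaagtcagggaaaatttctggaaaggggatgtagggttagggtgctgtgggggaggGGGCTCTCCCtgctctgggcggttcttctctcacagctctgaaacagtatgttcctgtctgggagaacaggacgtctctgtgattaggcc

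C3: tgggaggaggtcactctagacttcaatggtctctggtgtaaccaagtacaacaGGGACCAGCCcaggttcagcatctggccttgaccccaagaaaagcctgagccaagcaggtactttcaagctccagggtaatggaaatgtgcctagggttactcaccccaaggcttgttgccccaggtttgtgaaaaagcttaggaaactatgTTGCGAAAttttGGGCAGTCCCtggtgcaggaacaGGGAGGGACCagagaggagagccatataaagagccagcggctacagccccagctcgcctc

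C1ra: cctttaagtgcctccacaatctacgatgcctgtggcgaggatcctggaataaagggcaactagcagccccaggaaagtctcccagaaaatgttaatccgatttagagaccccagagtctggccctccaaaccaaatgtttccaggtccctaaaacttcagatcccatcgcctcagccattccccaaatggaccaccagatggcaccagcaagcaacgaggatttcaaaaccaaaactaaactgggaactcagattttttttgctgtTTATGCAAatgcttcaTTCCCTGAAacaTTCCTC

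C1s1: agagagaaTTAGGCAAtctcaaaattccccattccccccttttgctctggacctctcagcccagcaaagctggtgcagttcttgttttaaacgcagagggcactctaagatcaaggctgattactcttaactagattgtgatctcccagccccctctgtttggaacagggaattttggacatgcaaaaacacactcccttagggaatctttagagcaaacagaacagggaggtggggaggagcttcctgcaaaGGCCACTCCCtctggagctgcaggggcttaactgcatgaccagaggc

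These windows are chr4:136886151-136886450 (C1qb, minus strand), chr4:136892865-136893164 (C1qc, minus), chr17:57228087-57228386 (C3, minus), chr6:124512371-124512670 (C1ra, plus) and chr6:124542310-124542609 (C1s1, minus). C1qb and C1qc both held GAGGAA, the first base lying at -30 and -193 from the start, and so did C1ra at 45. C3, C1ra and the printed C1s1 window each held 1 C/EBP string, at -45, 17 and -242. A second C1s1 entry (chr6:124542272-124542571), from a start farther along the gene, held none, like the C1q windows, and had the NF-kB string alone. Only the C1ra window held the STAT string, at 33. The NF-kB string lay in all of these windows but that of C1ra, and 3 times in C3. Of all 32851 promoter windows of this length, 28.3% held GAGGAA, 10.8% TTGCNNAA, 20.7% the NF-kB string and 8.3% TTCNNNGAA. These are matches of letters in short windows, and no binding was measured here.

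The 8 libraries held 32121 cells and 41462258 to 95036340 gene UMIs (unique molecular identifiers, 1 per captured transcript), with a median of 9186 to 16299 UMIs per cell. After limits on genes and mitochondrial share, 30214 cells were kept. The 2 pools shared 59 cell barcodes and libraries of the same pool none. Tubb3 itself checked the labels. In CPM, in the order WT 1, WT 2, Tubb3-/- 1 and Tubb3-/- 2 that is kept for every set of 4 values here, it was 1.95, 0.858, 0.275 and 0.335 in the whole-cell libraries. It was 5.49, 3.78, 0.716 and 0.652 in the enriched ones, lower in both Tubb3-/- mice each time. A cell was put in a lineage when it had at least 1 UMI of that lineage's gene and of no other's: Ptprc for immune, Cdh5 for endothelial, Epcam for epithelial, Msln for mesothelial, Higd1b or Myh11 for mural (the pericytes and smooth muscle cells around vessels) and Pdgfra for fibroblast. That rule placed 15593 cells (51.6%), while 13859 (45.9%) matched several lineages and were dropped and 762 matched none. The fibroblast lineage had 3784 cells (866, 890, 1053 and 975 per mouse), the immune lineage 4388 (1205, 972, 1200 and 1011), the mural lineage 4498, the endothelial 2280, the mesothelial 322 and the epithelial 321. Of the mural cells, 1183, 676, 1158 and 984 per mouse had Myh11 without Higd1b. Only 11, 16, 10 and 5 had Higd1b, a pericyte marker, without Myh11. Mural levels here are thus mostly those of Myh11 cells, and say little of pericytes. The sort and depletion set the mix: 32.4 to 37.9% of the fibroblasts and 96.7 to 98.9% of the immune cells of a mouse came from its whole-cell library. In each lineage UMIs were summed per mouse, and a level here is the CPM of that sum, the gene's UMIs relative to all gene UMIs of the sum on the usual scale. In such a sum, fewer cells of a type and less RNA per cell cannot be told apart. The lineage labels were checked with marker lists. The summed level of 6 fibroblast markers was 10450, 6947, 11650 and 10770 CPM in the fibroblast lineage against 162, 253, 385 and 276 CPM in the immune lineage. It was 3518, 4245, 6191 and 5107 CPM in mesothelial and 2633, 2241, 4597 and 4013 CPM in mural cells, so those 2 lineages also carried transcripts of these genes, and the part of this in their complement levels was not tested. The summed level of 6 macrophage markers was 2436, 2708, 3143 and 3150 CPM in the immune lineage against 91.7, 129.8, 73.5 and 78.6 CPM in fibroblasts.

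The 9 genes fell into 2 patterns across lineages. C1qa, C1qb and C1qc were high in immune cells alone. The other 6 were high in fibroblasts and in the mesothelial cells that line the lung surface. They were lower in immune cells, with Cfb the nearest to its fibroblast level there. In mural cells these 6 differed. Serping1, C4b, C1s1 and C1ra averaged 347, 313, 169 and 58.0 CPM there, above the 3 lineages below, while C3 and Cfb averaged 88.3 and 8.77 CPM and were not set apart. Across the 4 mice (both genotypes pooled for the mean and SD), fibroblast levels averaged 767 CPM for C3, 486 for C4b, 329.9 for C1s1, 184 for C1ra, 91.2 for Cfb and 1615 for Serping1, and 5.35 for C1qa. Immune levels averaged 91.4 CPM for C3, 26.2 for C4b, 11.5 for C1s1, 11.1 for C1ra, 40.96 for Cfb and 34.6 for Serping1, and 470.1 for C1qa. The genes were proposed for this contrast, so the levels are a description and no test was made between lineages.

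**Figure D1:**
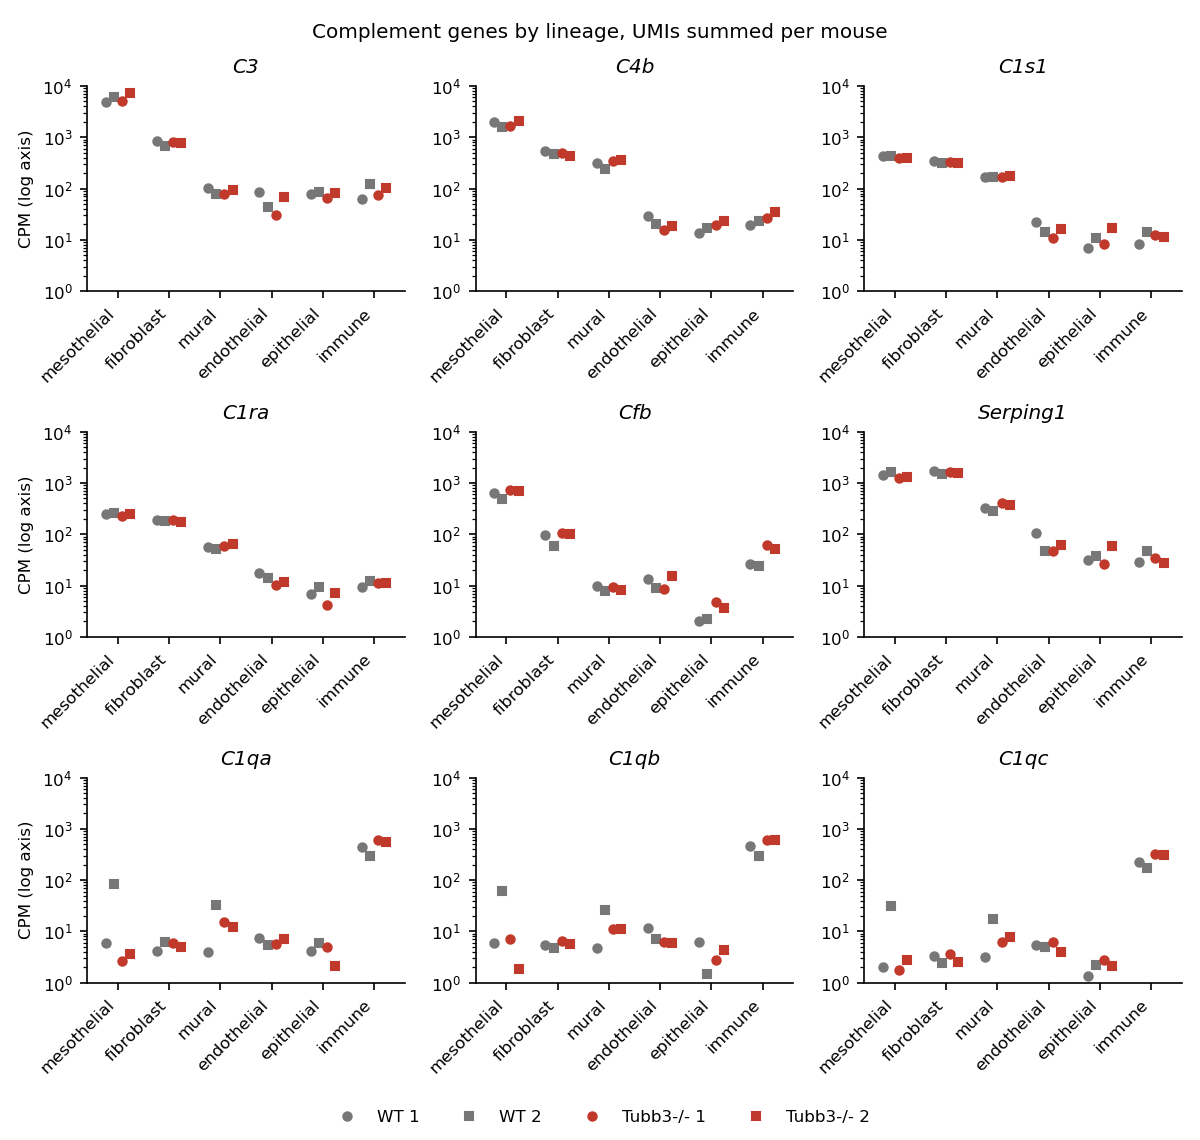
Level of each of the 9 genes by lineage, in CPM of UMIs summed per mouse on a log axis; each point is 1 mouse, grey for WT and red for Tubb3-/-, circles for replicate 1 and squares for replicate 2. The C1q chains are high only in the immune lineage (C1qa 298 to 594 CPM), with WT 2 standing apart among mesothelial cells, whereas the other 6 genes are highest in mesothelial cells and fibroblasts.

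The A chain of C1q, C1qa, was at 435, 298, 594 and 554 CPM in the immune lineage (470.1 ± 133, SD, n = 4 mice). The B chain, C1qb, was at 468, 302, 619.8 and 601 CPM (498 ± 147), and the C chain, C1qc, at 231, 169.7, 316 and 309.5 CPM (257 ± 69.7). WT 2 was the lowest mouse for each chain, and the Tubb3-/- mice were the 2 highest. The immune mean was 19.5 times that of the next lineage for C1qa, 26.2 times for C1qb and 26.8 times for C1qc, and in every mouse it was above every other lineage. In fibroblasts C1qa averaged 5.35 ± 0.903 CPM, C1qb 5.59 and C1qc 2.94.

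The C1q chains outside immune cells bear on the depth and on free RNA. When each cell was thinned to 2000 UMIs, so that lineages of unequal depth could be compared, 6.20 to 10.6% of immune cells per mouse had a C1qa UMI, against 0.857 to 1.13% of fibroblasts, 0.853 to 1.13% of mural cells and 0.865 to 1.94% of endothelial cells. Those 3 lineages had like low shares, and whether these reflect free RNA or expression was not tested. Without thinning, C1qa was seen in 11.2 to 16.5% of immune cells, whose median depth was 6651 to 7108 UMIs, and in 6.70 to 9.12% of fibroblasts, at 14690 to 19210 UMIs. Thinning left out 122 immune cells and 21 fibroblasts that were shallower. A few single cells held much of the rest. In WT 2, 105 of the 124 C1qa UMIs of the mesothelial lineage lay in 1 cell, and without it the level of 83.9 CPM was 12.9 CPM. Likewise 1 mural cell held 174 of 248 C1qa UMIs in Tubb3-/- 1, and 1 held 111 of 163 in Tubb3-/- 2. In the whole-cell libraries the 4 mice together had only 18 mesothelial and 40 mural C1qa UMIs, so the cells named above lay in the enriched pool. Scrublet, a doublet caller, had not marked them there.

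C1q levels also differed between the pools. In immune cells of the whole-cell libraries C1qa was at 396, 144, 499 and 469 CPM. In the 13, 32, 25 and 23 immune cells left after CD45 depletion in the enriched libraries it was at 3798, 4466, 4039 and 3187 CPM, above every whole-cell value. The summed immune level of WT 2 was thus 298 CPM with these cells and 144 without them.

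C1r and C1s, the proteases that C1q carries, were in other cells. C1ra, which encodes C1r, was at 194, 179, 190.3 and 173 CPM in fibroblasts (184 ± 9.71), 252, 263, 233 and 253 CPM in mesothelial cells (250.2 ± 12.6) and 57.8, 51.7, 59.0 and 63.5 CPM in mural cells (58.0 ± 4.87). The 4 mice were close together, and these 3 lineages did not overlap. Endothelial, immune and epithelial means were 13.5, 11.1 and 6.90 CPM, and the first 2 of these overlapped.

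C1s1, which encodes C1s, had the same order. It was at 352, 319.7, 328 and 320.5 CPM in fibroblasts (329.9 ± 15.1), at 434, 436, 398 and 400.5 CPM in mesothelial cells (417 ± 20.9) and at 167, 166, 170.5 and 173 CPM in mural cells (169 ± 3.30). The mesothelial mean was 1.26 times the fibroblast one, the fibroblast mean 1.95 times the mural one, and the mural mean 10.6 times the endothelial one. The remaining lineages overlapped, with endothelial cells at 16.0, immune cells at 11.5 and epithelial cells at 10.8 CPM.

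C4b, the fourth component that C1s cleaves, was at 545, 475, 489 and 435 CPM in fibroblasts (486 ± 45.6) and at 1994, 1586, 1625 and 2095 CPM in mesothelial cells (1825 ± 257). Mural cells had 317, 237, 342 and 358 CPM (313 ± 53.6). No mouse of one of these lineages overlapped a mouse of the next. The immune level was 19.8, 23.5, 26.5 and 35.1 CPM (26.2 ± 6.51), which overlapped with endothelial cells at a mean of 20.9 and epithelial cells at 18.2 CPM.

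C3, on which all pathways meet, had its highest level in mesothelial cells, at 4819, 6137, 5189.9 and 7417 CPM (5891 ± 1159), 7.68 times the fibroblast mean. Fibroblasts were at 830.4, 678, 796 and 763 CPM (767 ± 65.2), which was 8.39 times the next lineage. Immune cells had 63.3, 124, 76.0 and 102 CPM (91.4 ± 27.3), and mural (88.3 ± 11.8), epithelial (78.1 ± 9.49) and endothelial cells (56.8 ± 24.6) overlapped with them. C3 was thus above 600 CPM in every mesothelial and fibroblast sum and below 130 CPM in every other. Thinned to 2000 UMIs, 82.9 to 92.6% of mesothelial cells and 51.4 to 57.2% of fibroblasts per mouse had a C3 UMI.

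Cfb, the protease precursor of the alternative route, was at 639, 486, 731 and 712 CPM in mesothelial cells (642 ± 111), 7.04 times the fibroblast mean. In fibroblasts it was at 98.4, 59.6, 105 and 102 CPM (91.2 ± 21.2), with WT 2 well below the other 3 mice. Of the 6 genes outside C1q, Cfb alone had an immune range that met that of fibroblasts: 26.4, 23.997, 62.5 and 50.9 CPM (40.96 ± 18.8). Endothelial, mural and epithelial means were 11.6, 8.77 and 3.17 CPM. At 2000 UMIs per cell, Cfb was seen in 43.1 to 65.3% of mesothelial cells, 9.30 to 18.6% of fibroblasts and 2.52 to 6.17% of immune cells.

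Serping1, the inhibitor of C1r and C1s, was at 1748, 1504, 1619 and 1588 CPM in fibroblasts (1615 ± 101). Mesothelial cells had 1419, 1618, 1276 and 1301 CPM (1404 ± 156), which overlapped with fibroblasts, so that Serping1 was the one gene of the 6 without a clear mesothelial lead. Mural cells followed at 326, 289.7, 402 and 373 CPM (347 ± 49.6). Endothelial, epithelial and immune means were 65.9, 39.2 and 34.6 CPM. At 2000 UMIs, 88.5 to 90.9% of fibroblasts per mouse had a Serping1 UMI.

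High levels in a small lineage need not make it the main source. In the whole-cell libraries, with each cell given to the lineage that held 80% or more of its lineage-gene UMIs (a looser rule chosen after seeing how many cells the first one dropped), mesothelial cells were 1.04% of cells on the mean of 4 mice, fibroblasts 13.0%, mural cells 4.58% and immune cells 42.3%. Fibroblasts held 40.6% of the C3 UMIs (29.0 to 50.9% per mouse) and mesothelial cells 24.4% (16.3 to 37.7%). For C4b these shares were 51.2% and 15.5%, for C1s1 60.2% and 6.16%, for C1ra 57.5% and 7.18%, and for Serping1 66.2% and 4.97%. Fibroblasts thus held the most of the UMIs of these 5 genes in the mean, but in WT 2 mesothelial cells held more of the C3 UMIs (37.7%) than fibroblasts (29.0%). The UMIs of Cfb were split between immune cells with 32.7%, fibroblasts with 30.4% and mesothelial cells with 16.8%. Immune cells held 81.6% of the C1qa, 82.8% of the C1qb and 80.7% of the C1qc UMIs. Cells with no leading lineage, 19.3% of all, held 14.4 to 22.4% of a gene's UMIs. Dissociation and depletion set these cell shares, so they are shares of the libraries and not of the lung.

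**Figure D2:**
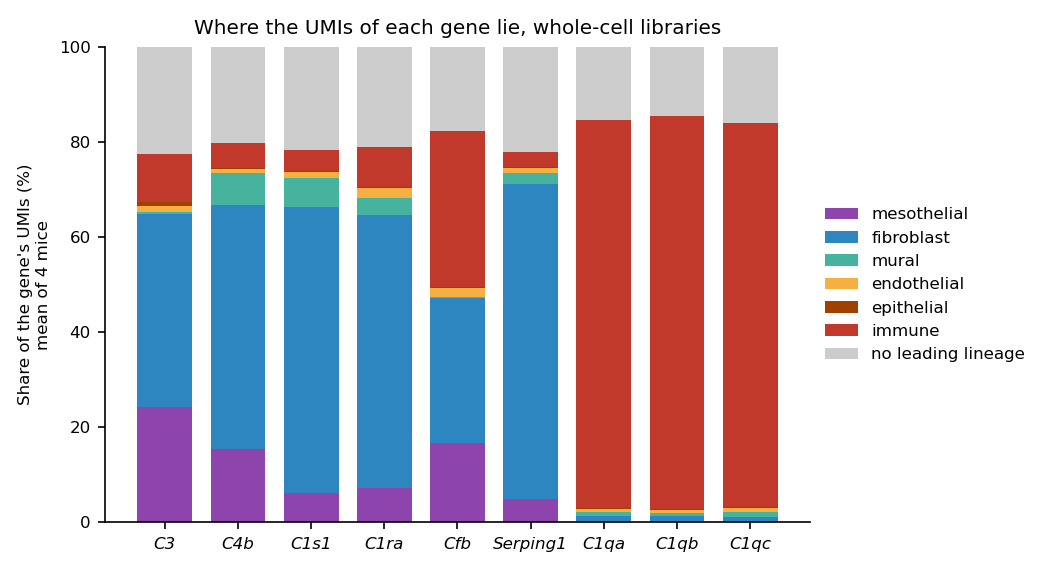
Share of each gene's UMIs (%, mean of 4 mice, stacked bars from 0 to 100) in the cells of each lineage in the whole-cell libraries; grey is cells with no leading lineage. Immune cells hold over 80% of the UMIs of the C1q chains, fibroblasts the most in the mean for C3 (in WT 2 mesothelial cells held more), C4b, C1s1, C1ra and Serping1, and the UMIs of Cfb are split between immune cells (32.7%), fibroblasts (30.4%) and mesothelial cells (16.8%).

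Over the 24 sums (6 lineages in 4 mice), the C1q chains had near-identical profiles in log2(CPM + 1), with a Pearson r of 0.977 for C1qa and C1qb, 0.987 for C1qa and C1qc and 0.98 for C1qb and C1qc. C1ra, C1s1 and Serping1, the proteases and their inhibitor, were as close: r was 0.979 for C1ra and C1s1, 0.984 for C1s1 and Serping1 and 0.985 for C1ra and Serping1. C3 was nearest to Cfb among the members outside C1q at r = 0.906. The sums of a mouse share its libraries and a lineage recurs in every mouse, so these values describe the lineage profile and carry no p. Among 12391 genes outside the 9, the 3 most like C1qa were Ms4a7 (r = 0.973), C3ar1 (0.966) and Adgre1 (0.957). For C1qb they were C3ar1 (0.963), Ms4a7 (0.958) and Fcrls (0.952), and for C1qc Ms4a7 (0.986), C3ar1 (0.982) and Fcrls (0.966). C3ar1 encodes the receptor of the C3a fragment and Adgre1 the macrophage marker F4/80, and Ms4a7 was also one of the genes that mark the interstitial macrophages described below. For C1s1 the nearest were Pamr1 (0.987), Rcn3 (0.983) and Ptgis (0.982), and for Serping1 Dcn (0.984), the matrix proteoglycan decorin, Pamr1 (0.982) and B3gnt9 (0.981). The genes near C1ra included Adgrd1 and Nnmt, and those near C4b Gata5 (0.984) and Podn. C3 was nearest to A630012P03Rik (0.979), Upk1b (0.971) and Gpc3 (0.967), while Cfb had no gene above Tpbgl (0.944), with Calr (0.916) and Glb1 (0.912) next.

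Fibroblasts of the lung fall into groups. Cells were assigned by short marker lists: alveolar fibroblasts (Npnt, Ces1d, Slc7a10, Scube2), adventitial fibroblasts of the vessel and airway cuffs (Pi16, Dpp4, Sema3c, Ackr3) and fibrotic fibroblasts (Cthrc1, Adam12), each with 2 or more UMIs over 1 list only. C3 was at 1994, 1848, 2258 and 1532 CPM in the 81, 22, 52 and 56 adventitial cells (1908 ± 303) and at 613, 575, 775 and 745 CPM in the 261, 415, 231 and 227 alveolar cells (677 ± 97.7). Every adventitial sum was above every alveolar one. Cfb was at 304, 226, 328 and 271 CPM in adventitial and 50.1, 42.4, 72.9 and 56.0 CPM in alveolar fibroblasts, which was again no overlap. C4b (776, 852, 837 and 591 against 482, 384, 467 and 414 CPM), C1s1 (579, 609, 679 and 515 against 305, 269.8, 292 and 273 CPM), C1ra (379, 344, 357 and 314 against 155, 157, 156 and 144 CPM) and Serping1 (2744, 2467, 2310.3 and 2551 against 1601, 1442, 1649 and 1525 CPM) lay in the same order in every mouse. These fixed groups left out many cells, since 59.4% of fibroblasts passed several lists.

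A looser grouping by leading list (2 or more UMIs and at least 2 in 3 of the list UMIs, among cells of a leading lineage), chosen after seeing that loss, held 1014, 1374, 1249 and 1138 alveolar, 205, 100, 176 and 190 adventitial and 23, 10, 106 and 46 fibrotic cells. C3 was at 1492, 1279, 2003 and 1845 CPM in adventitial fibroblasts, 697, 624, 758 and 686 CPM in alveolar ones and 302, 262, 333 and 367 CPM in fibrotic ones. The 3 groups did not overlap for C3. Fibrotic fibroblasts were the lowest of these 3 for the other genes too: C4b was at 152, 76.3, 110.0 and 64.1 CPM in them, C1ra at 59.3, 57.2, 61.8 and 69.9 CPM, Cfb at 29.7, 4.77, 25.6 and 17.5 CPM and Serping1 at 656, 796, 708 and 740.3 CPM. C1s1, at 113, 253, 132 and 127 CPM, was below its alveolar level of 322, 298, 305 and 291 CPM in each mouse. The fibrotic sum of WT 2 rests on 10 cells. In adventitial fibroblasts Cfb was at 259.9, 187, 371 and 351 CPM and Serping1 at 2581, 2253, 2466 and 2482 CPM. The groups were set by their lists, so high levels of the listed genes follow from the rule and are no check. Pi16 was at 1193 to 1386 CPM in adventitial, Npnt at 1018 to 1827 CPM in alveolar and Cthrc1 at 929.6 to 1257 CPM in fibrotic fibroblasts.

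**Figure D3:**
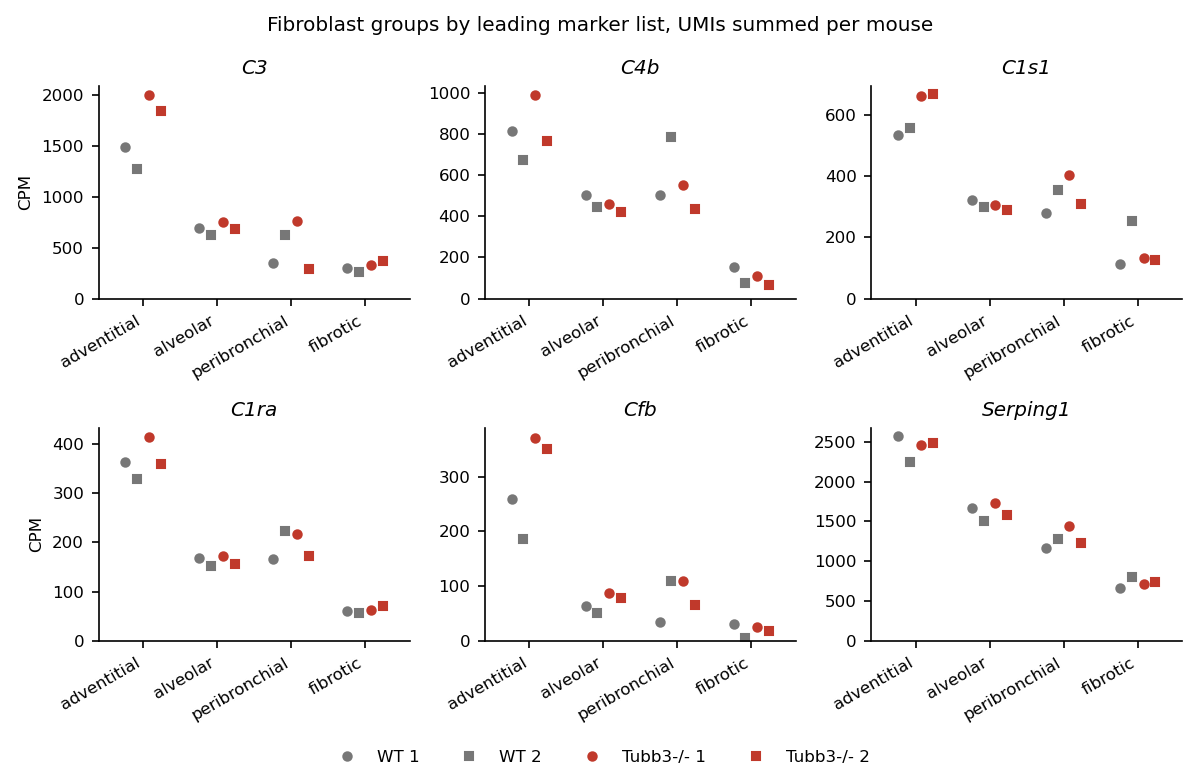
Level (CPM of UMIs summed per mouse, linear axes from 0) of the 6 genes outside C1q in fibroblasts grouped by leading marker list. Each point is 1 mouse, grey for WT and red for Tubb3-/-. Adventitial fibroblasts are the highest group for C3 (1279 to 2003 CPM) and Cfb (187 to 371 CPM) in every mouse, and fibrotic fibroblasts are below alveolar ones for all 6 genes.

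Among immune cells the C1q chains lay mainly in interstitial macrophages, the resident macrophages of the lung wall, gated by 2 or more UMIs of Ms4a7, Folr2, Lyve1, Cd163 and Stab1. In these 47, 31, 48 and 48 cells C1qa was at 4731, 4994, 5825 and 4472 CPM (5005 ± 587), C1qb at 4466, 5076, 5258 and 4482 CPM (4821 ± 407) and C1qc at 2456, 2954, 2882 and 2429 CPM (2680.0 ± 276). The genotypes overlapped for each chain. These cells were 3.90, 3.19, 4 and 4.75% of the immune lineage and held a mean of 56.2% of its C1qa, 51.7% of its C1qb and 55.1% of its C1qc UMIs. Cells that passed several immune gates, 39.9% of the lineage, held 31.4% of the C1qa UMIs. The gated cells carried the macrophage markers Adgre1 (414, 557, 540 and 383 CPM) and Csf1r (588, 757, 679 and 639 CPM). Marco, a gene of the alveolar macrophage gate, was at or below 4.93 CPM. Dropping cells that passed several gates keeps it low, so it is no check.

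Alveolar macrophages, which clear the air space, had little C1q. Gated by Marco, Siglecf, Car4, Krt79 and Fabp1, they were 46, 77, 55 and 45 cells, with C1qa at 11.3, 3.55, 12.001 and 138 CPM. The value of Tubb3-/- 2 came from a single cell with 126 of the 131 UMIs, and without it the level was 5.46 CPM. C1qb was at 23.8, 18.4, 24.002 and 186 CPM, and the last value fell to 36.0 CPM without the cell that held the most. These cells had Mertk at 751, 816, 649.7 and 739 CPM and Ms4a7 at or below 11.6 CPM. Ms4a7 is a gene of the interstitial gate, so the gate rule keeps it low here. Cfb had the opposite order in the 2 macrophage groups, at 55.6, 28.4, 113 and 119 CPM in alveolar and 14.8, 46.6, 66.2 and 20.7 CPM in interstitial macrophages, although WT 2 was higher in the interstitial ones. Alveolar macrophages were 5.19% of immune cells in the mean and held 18.2% of the Cfb UMIs of the lineage, while cells that passed several gates held 58.9%. Macrophages gated by Spp1 and Arg1, the genes of the macrophages that gather in scarred lung, were only 11, 12, 20 and 12 cells. Their C1qa was at 1099.6, 0, 601 and 503 CPM, and they were not tested. In the mean they were 1.25% of immune cells and held 2.74% of the Cfb UMIs of the lineage. That Cfb share was 2.61, 1.67, 5.98 and 0.714% per mouse, so Cfb was not confined to alveolar macrophages.

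**Figure D4:**
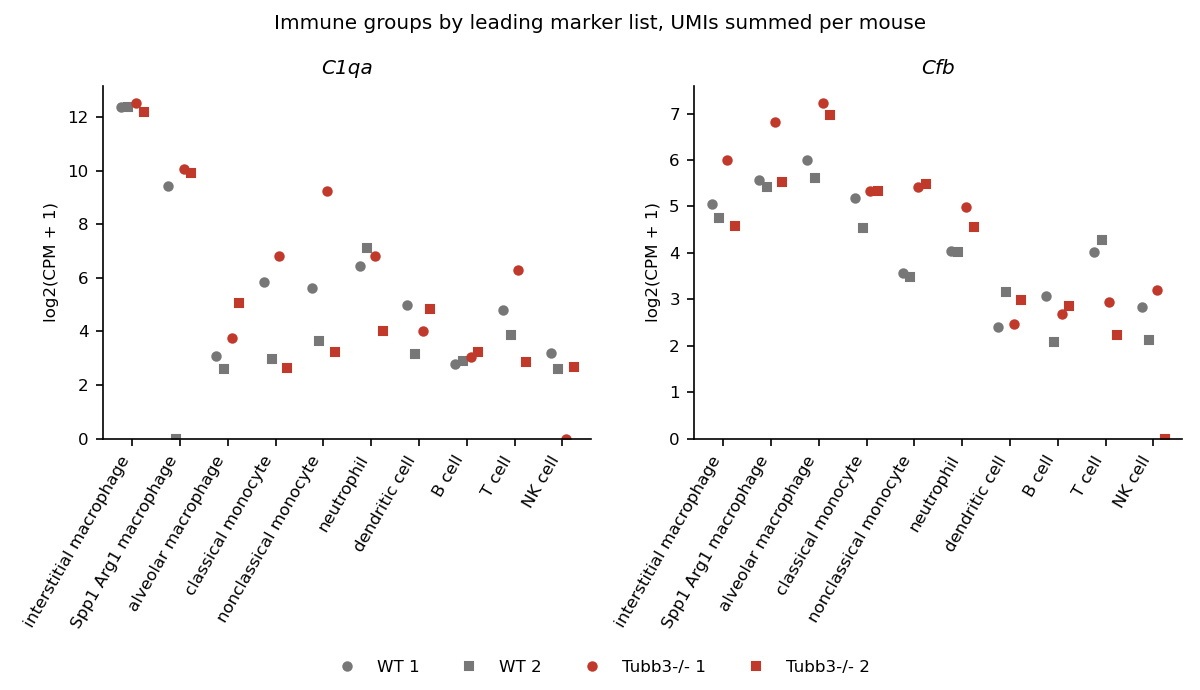
Level of C1qa (left) and Cfb (right) in log2(CPM + 1) of UMIs summed per mouse, in immune cells grouped by leading marker list; each point is 1 mouse, grey for WT and red for Tubb3-/-. Interstitial macrophages are the highest group for C1qa in every mouse (4654 to 5969 CPM before the log), and alveolar macrophages are the highest group for Cfb (47.7 to 149.6 CPM), where the genotypes do not overlap.

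Between genotypes, none of the 9 genes passed the test in any whole lineage. The test was edgeR's quasi-likelihood test on the sums of 2 Tubb3-/- against 2 WT mice. Its p-values were adjusted by Benjamini-Hochberg across every gene in the fit. A p sets the genotype difference against the estimated variation between mice of a genotype, with 2 mice in each. With so few mice the genotypes often fail to overlap by chance, and the share of all genes without overlap was not counted. A lack of overlap is thus given as description only. In fibroblasts 0 of 14777 genes (0%) were called, with 2677 at an unadjusted p under 0.05, and DESeq2 called 508. The log2 fold changes (Tubb3-/- minus WT, ± SE) of the genes outside C1q were 0.04 ± 0.16 for C3 (adjusted p = 0.931), -0.15 ± 0.14 for C4b (0.636) and -0.06 ± 0.12 for C1s1 (0.835). They were -0.05 ± 0.12 for C1ra (0.879), 0.37 ± 0.26 for Cfb (0.4931) and -0.03 ± 0.15 for Serping1 (0.945). The WT and Tubb3-/- mice overlapped for C3, C4b, C1s1, C1ra and Serping1. For Cfb both Tubb3-/- mice were above both WT mice, and WT 2 lay far below WT 1. Without WT 1 the Cfb difference was 0.845 and was called (adjusted p = 0.00672, the range over 14 alternatives being 0.00672 to 0.892), among 6.6% of all genes.

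Within fibroblast groups the result was the same. In alveolar fibroblasts 114 of 11837 genes (0.963%) were called, and none of the 6 genes outside C1q was. C3 differed there by 0.34 ± 0.14 (adjusted p = 0.324) and Cfb by 0.47 ± 0.18 (adjusted p = 0.281), and both Tubb3-/- mice were above both WT mice for each. In adventitial fibroblasts 0 of 7825 genes (0%) were called, with 583 at an unadjusted p under 0.05 and 11 by DESeq2. The share of adventitial cells among fibroblasts was 9.35, 2.47, 4.94 and 5.74%, and WT 2, with the lowest share, also had the lowest Cfb and C3 of the lineage. What that share adds to the lineage level was not tested.

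Mural, mesothelial, endothelial and epithelial sums gave no called member either. In mural cells 0 of 14442 genes (0%) were called (1586 at an unadjusted p under 0.05, 159 by DESeq2), and C4b and Serping1 both differed by 0.32 (SE 0.18 and 0.13, adjusted p = 0.589 and 0.459), higher in both Tubb3-/- mice. The 6 fibroblast markers in mural cells moved the same way without overlap, at 2633 and 2241 CPM in WT against 4597 and 4013 CPM in Tubb3-/- mice, and their part in the result was not tested. Without WT 1 edgeR called 4 members there, among 2.07% of all genes, and without WT 2 it called 2, among 3.19%. The genotype effect in fibroblasts was tested against that in mural cells in 1 fit, where 0 of 15361 genes (0%) were called (1342 at an unadjusted p under 0.05, 71 by DESeq2). The effect in fibroblasts was lower by 0.48 ± 0.12 for C4b (difference of log2 fold changes -0.48, adjusted p = 0.345) and by 0.33 for Serping1 (-0.33 ± 0.079, adjusted p = 0.319). The fibroblast markers in the mural sums bear on this difference too, and their part was not tested. In mesothelial cells 22 of 9527 genes (0.231%) were called, 6 of the 9 members were tested, and Cfb differed by 0.36 ± 0.17 (adjusted p = 0.638), C3 by 0.20 ± 0.17 (0.851) and Serping1 by -0.24 ± 0.15 (0.746). Without WT 1, or without Tubb3-/- 2, 3 of the members were called in mesothelial cells, among 2.92% and 3.33% of all genes. Those 3 members are not named here and need not be Cfb, C3 and Serping1. The C1q levels of WT 2 in mesothelial cells came mostly from a single cell. A call of a C1q chain in a fit that includes WT 2 would carry that limit. In endothelial cells 0 of 12737 genes (0%) were called (1731 at an unadjusted p under 0.05, 128 by DESeq2), and in epithelial cells 0 of 10422 (444 and 3).

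In immune cells edgeR called 0 of 14083 genes (0%), with 1188 at an unadjusted p under 0.05 and 69 by DESeq2. Cfb had the largest difference of the 9, 1.18 ± 0.14 on the log2 scale (adjusted p = 0.207), since the Tubb3-/- mice had 62.5 and 50.9 CPM against 26.4 and 23.997 CPM. Over 14 alternatives its difference was 0.905 to 1.33 and its adjusted p 2.33e-05 to 0.876. It was called by DESeq2 (adjusted p = 2.45e-05, among 0.49% of genes), without a filter on low counts (2.33e-05, among 1.19%) and with the replicate number as a block (0.0358, among 0.0923%). It was also called without WT 1 (difference 1.28, adjusted p = 0.00383, among 3.41%) and without WT 2 (difference 1.09, adjusted p = 0.0133, among 1.16%). The summed fibroblast markers in the immune lineage, at 162, 253, 385 and 276 CPM, were also higher in both Tubb3-/- mice. Their part in the result was not tested.

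The C1q chains differed in immune cells by 0.66 ± 0.20 for C1qa, 0.68 ± 0.22 for C1qb and 0.65 ± 0.17 for C1qc on the log2 scale (edgeR, adjusted p = 0.546, 0.556 and 0.502). Both Tubb3-/- mice were above both WT mice for each chain. Leaving out WT 1 brought all 3 chains past the threshold (difference 0.981, 1.05 and 0.917 with adjusted p = 0.00228, 0.00137 and 0.00228), as did dropping the filter on low counts (adjusted p = 0.0127, 0.0154 and 0.00868), settings in which 3.41% and 1.19% of all genes were called. In the few immune cells of the enriched libraries the differences were -0.192, -0.299 and -0.259, the other way. Within the interstitial macrophage gate the chains differed by 0.07 ± 0.21 for C1qa, 0.02 ± 0.20 for C1qb and -0.03 ± 0.20 for C1qc (adjusted p = 0.988 for C1qa). There edgeR called 0 of 6840 genes (0%), with 335 at an unadjusted p under 0.05 and 1 by DESeq2. The macrophage markers of the immune lineage, at 2436, 2708, 3143 and 3150 CPM, were also higher in both Tubb3-/- mice. So were the 6 immune markers, at 17010, 21340, 23520 and 25250 CPM. Both marker sums were higher in WT 2 than in WT 1, the reverse of the chains. The part of these markers in the result was not tested.

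In the alveolar macrophage gate Cfb passed the test. It was higher in Tubb3-/- mice by 1.63 ± 0.26 on the log2 scale (edgeR, adjusted p = 0.0265), in 2 of 2 mice against 2 of 2. There 31 of 8038 genes (0.386%) were called, with Cfb the 1 called of the 8 members tested, and DESeq2 called 23 genes. In these cells the 6 fibroblast markers summed to 146, 175, 123 and 129 CPM and the 6 mesothelial markers to 388, 459, 164 and 116 CPM, both lower in the Tubb3-/- mice. Pdgfra and Msln, which belong to these lists, are absent from the cells by the lineage rule. The part of fibroblast or mesothelial transcripts in the Cfb result was not tested. C4b, at 19.3, 14.2, 37.6 and 35.9 CPM, did not overlap either but did not pass (1.26 ± 0.29, adjusted p = 0.0931). Over 9 alternatives the Cfb difference was 1.11 to 2.13 and its adjusted p 5.96e-11 to 0.109, the call being lost without WT 1 (2.13, adjusted p = 0.109). C1qa and C1qb had differences of 3.55 ± 0.92 (adjusted p = 0.148) and 2.37 ± 0.68 (adjusted p = 0.176) that rested on Tubb3-/- 2, and without that mouse they were 0.91 (adjusted p = 0.795) and 0.29 (adjusted p = 0.894). By that test C3, at 71.4, 174, 109 and 214 CPM, and Serping1, at 31.7, 37.3, 23.2 and 16.9 CPM (-0.70 ± 0.28, adjusted p = 0.386), were not called.

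The looser grouping gave 205, 280, 218 and 181 alveolar macrophages, from the same libraries and marker lists as the gate, so it is no separate evidence. Cfb was at 62.8, 47.7, 149.6 and 124 CPM (1.39 ± 0.15, edgeR adjusted p = 0.0193), and no cell held more than 7.07% of its UMIs. C4b was at 14.2, 14.6, 31.6 and 24.7 CPM (1.04 ± 0.17, adjusted p = 0.032) and C1qb at 14.4, 10.1, 37.6 and 54.0 CPM (1.99 ± 0.22, adjusted p = 0.0193). These 3 were called, among 215 of 11308 genes (1.9%). In Tubb3-/- 2 a single cell held 143 of the 264 C1qb UMIs. With the highest cell of each mouse removed, C1qb was at 11.1, 9.24, 33.7 and 24.9 CPM, and the genotypes still did not overlap. C1qa (1.90, adjusted p = 0.0671) and C1qc (2.08, adjusted p = 0.0589) were not called. In the same cells Ms4a7, the interstitial marker, was at 7.19, 7.15, 12.8 and 9.40 CPM, also higher in both Tubb3-/- mice, and its part in the C1q difference was not tested. In the looser adventitial group Cfb differed by 0.67 ± 0.20 (adjusted p = 0.33) and C3 by 0.46 ± 0.16 (adjusted p = 0.42).

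**Figure D5:**
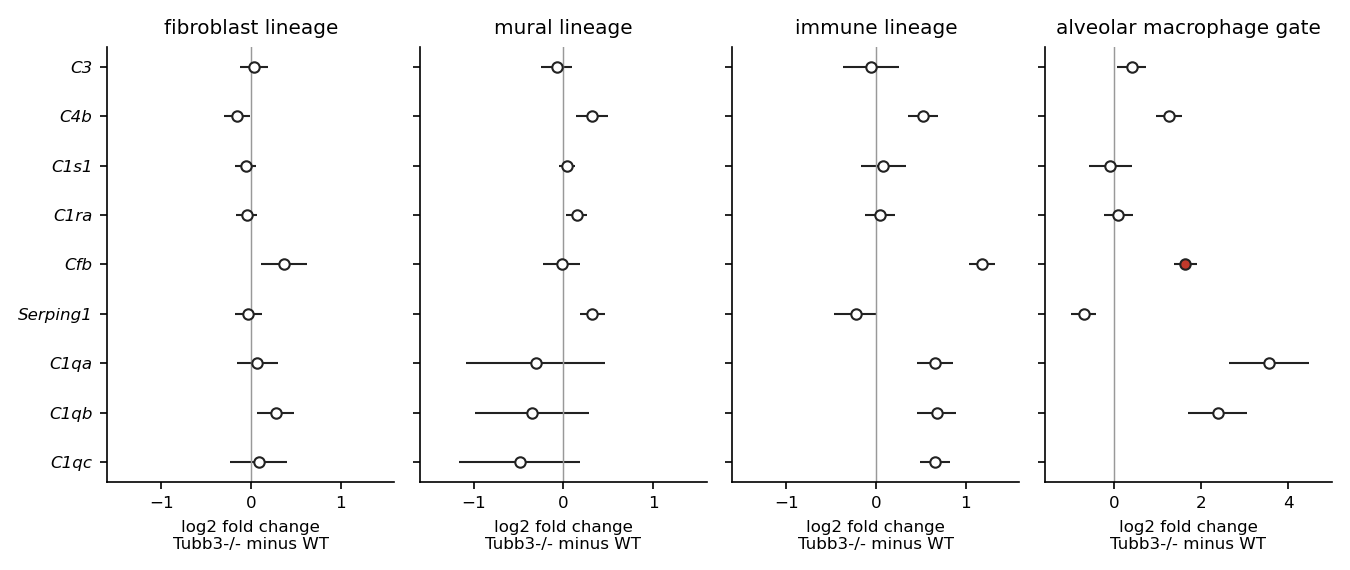
Log2 fold change (Tubb3-/- minus WT, points) with its SE (bars) from edgeR for each gene in fibroblast, mural and immune lineages and in the alveolar macrophage gate, with 2 mice per genotype; the filled point is the one called at an adjusted p under 0.05, and C1qc was not tested in the gate. Fibroblast differences of the 6 genes outside C1q lie between -0.15 and 0.37, and Cfb is the called gene in alveolar macrophages at 1.63.

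The rest of the complement system was followed in a list of 51 genes that includes the 9. In fibroblasts 17 of the 51 reached 10 CPM, of which 0 rose and 0 fell by the edgeR test, and their median log2 fold change was -0.0417 beside -0.0043 over all genes tested. In immune cells 22 reached 10 CPM, of which 0 rose and 0 fell, with a median of 0.119 beside -0.0004. In mesothelial cells 20 did, 17 of them were tested and 0 were called, with a median of -0.0878 beside -0.0008. Among those with the lowest p in fibroblasts were C7 and C6. C7, a part of the membrane attack complex, was at 824, 756, 516 and 531 CPM (-0.60 ± 0.12, adjusted p = 0.115). C6, which precedes it in that complex, was at 26.0, 27.6, 36.2 and 33.5 CPM (0.38 ± 0.10, adjusted p = 0.164). Neither passed, and since both were picked by their p, the lack of overlap between genotypes adds nothing to it. In immune cells Cfb and C1qc, described above, were among those with the lowest p. C2, chosen after its values were seen because it lies 85 bases from Cfb, averaged 558 CPM in mesothelial cells, 80.4 in fibroblasts, 14.4 in mural and 3.47 CPM in immune cells.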

How the data were processed

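Lungs of 2 WT and 2 Tubb3-/- mice were tagged (CellPlex) and pooled into 2 droplet pools (10x 3′ v3.1), which the tags split into 8 count tables, aligned and counted by the authors with Cell Ranger 7.1.0 on mm10 with a Cre sequence added, per the submitters' processing notes and the study's methods. The deposited values are raw UMI counts per gene and cell, not normalized. Each file was tied to a mouse by the tag its labels give, which held 88.1 to 94.7% of its tag UMIs. The deposited tables hold only cells already assigned to 1 tag.

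Cells with 200 to 7500 genes and at most 15% mitochondrial UMIs were kept (30860 of 32121). Scrublet marked 644 of 16700 cells as doublets in the mural cell-enriched pool and only 2 of 14160 in the whole-cell pool, where it has not worked, so doublets remain there. Lineages were set by marker UMIs and summed per mouse (Python 3.11.15, numpy 2.4.6, pandas 2.3.3, scipy 1.17.1, scanpy 1.11.5, matplotlib 3.10.9). edgeR 4.0.16 (quasi-likelihood, TMM, filterByExpr, limma 3.58.1, R 4.3.3) compared genotypes in each lineage, and in each gate with 20 or more cells in every mouse, at an adjusted p of 0.05 over all genes. The edgeR step was tested on simulated data with known fold changes. Log values used a pseudocount of 1 CPM. Cluster labels of the authors were not used here.

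The alternatives were DESeq2 1.42.0, RLE normalization, no filter, a replicate block, each mouse left out, each pool alone, doublets kept, a mitochondrial limit of 10%, a lineage rule of 2 UMIs, and, chosen after seeing the data, leading lineages and leading gates, the removal of the highest cell, and the 2 results on Cfb in immune cells and alveolar macrophages. The named genes were the 9, the called genes of the complement lists (or the 3 of lowest p) among those at 10 CPM or more, and the 3 most alike to each of the 9 by Pearson r; some genes that this rule names are not reported here. The 9 genes, the lists and the gates were chosen with earlier results of these data known. Counting intervals were not given, because the spread between mice is shown.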

Additional observations from a re-analysis of the deposited data

Results flagged for a closer look

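In 4 of 54 sets of 4 mice (a gene in a lineage), 1 mouse lay far from the other 3 by Dixon's criterion, which chance alone meets in about 1 of 20 sets. 3 of them were the C1q chains in mesothelial cells of WT 2, with C1qa at 83.9 CPM, C1qb at 60.9 CPM and C1qc at 31.8 CPM, and 1 cell held 84.7%, 74.4% and 76.6% of their UMIs. Without that cell they were at 12.9, 15.7 and 7.48 CPM. The last was Cfb in fibroblasts of WT 2, at 59.6 CPM against 98.4 CPM in WT 1, 105 in Tubb3-/- 1 and 102 in Tubb3-/- 2.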

How the results depend on the processing

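The number of the 9 genes called between genotypes was 0 in endothelial and epithelial cells under all 14 alternatives. With no mouse left out, 0 to 4.23% and 0 to 0.816% of all genes were called there. In immune cells it was 1 by DESeq2 (0.49% of all genes called), 4 with no filter on low counts (1.19%) and 1 with the replicate block (0.0923%), and 0 to 4 with 1 mouse left out (0 to 3.41%). In mesothelial cells it was 3 with no filter (1.76%) and 0 to 3 with 1 mouse left out (0.623 to 3.33%). Leaving out 1 mouse gave 0 to 4 in mural cells (0 to 3.19%), 0 to 1 in fibroblasts (0 to 6.6%) and 0 to 1 of the 6 genes in alveolar fibroblasts (0.00808 to 11.3%), and of the 3 C1q chains in the alveolar macrophage gate 0 to 3 (0.0112 to 2.04%). With no filter 3 of those chains were called (1.41%), with the replicate block 2 (3.51%) and with leading gates 1 (1.9%). In interstitial macrophages, in adventitial fibroblasts and in the fibroblast against mural difference the count was 0 throughout. With no mouse left out, 0 to 0.0146%, 0 to 1.9% and 0 to 1.22% of all genes were called in these. The cause of the changes in count was not tested. A genotype left with 1 mouse was assumed to vary like the other.

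In fibroblasts the sign turned for C3 in whole-cell libraries alone (-0.0388), for C1s1 and Serping1 in enriched libraries alone (0.00154 and 0.0125) and for Serping1 with no filter (0.0107). With 1 mouse left out the log2 fold changes ran from -0.126 to 0.251 for C3, -0.273 to 0.0126 for C4b, -0.154 to 0.0700 for C1s1, -0.133 to 0.0718 for C1ra and -0.16 to 0.143 for Serping1, so that each turned its sign, and none of these was called. In immune cells of the enriched libraries it turned for C1qa (-0.192), C1qb (-0.299) and C1qc (-0.259).

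Replicate numbers were shared between genotypes as numbers only, and the labels give no shared litter or day. With the replicate block edgeR called 1532 genes in fibroblasts, 13 in immune, 573 in mural and 275 in mesothelial cells, and of the 9 genes Cfb in immune cells (adjusted p = 0.0358). Tests in Spp1 Arg1 macrophages and in fibrotic and inflammatory fibroblasts were not run, since a mouse had under 20 cells. 2 mice per genotype and the 45 to 77 cells of the alveolar macrophage gate limit what can be seen.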
